A study of Saccharomyces cerevisiae with 9 samples.

Results

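Ribosome assembly factors of the nucleolus were examined in yeast cells that had been heated slowly, heated rapidly or left untreated. The genes were taken by name alone, as every gene whose standard symbol in the R64 annotation begins with UTP, NOP, NOC, RPF, NSA or NUG followed directly by a digit. This gave 43 genes of the 7126 annotated features for which reads had been counted (18 UTP, 17 NOP, 3 NOC, 2 RPF, 2 NSA and 1 NUG), and all 43 passed the filter on low counts. BY4742 is a haploid laboratory strain of Saccharomyces cerevisiae, of mating type α, that carries his3Δ1, leu2Δ0, lys2Δ0 and ura3Δ0, and all 9 samples shared this background. Cells were grown for 48 h at 25 °C in YPD until they had reached the stationary phase, in 3 independent cultures, each of which gave a sample for every group. The control cells were collected before any heating, the heat ramp warmed cells by 0.5 °C per min from 25 °C up to 50 °C, and the heat shock did so by 50 °C per min. Both treatments ended with 30 min at 50 °C and a rapid return to 25 °C, and the RNA was extracted immediately afterwards. The ramp therefore also took longer than the shock, so that the heating rate and the time spent under treatment cannot be told apart.

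Ribosomes are built in the nucleolus, where the ribosomal RNA precursor is transcribed, folded, modified and cut while assembly factors bind to it. UTP proteins belong to the small subunit processome, which gathers in ordered subcomplexes (UTP-A, UTP-B and UTP-C) on the 5′ end of the precursor together with the U3 small nucleolar ribonucleoprotein (snoRNP). Most NOP, NOC, RPF, NSA and NUG proteins act on precursors of the large subunit, although a few (NOP6, NOP9, NOP14, NOP19 and NOC4) belong to the small subunit path and others are core proteins of the snoRNPs that guide RNA modification. In growing yeast these genes are known to be transcribed together, through a pair of short promoter elements called PAC (polymerase A and C box) and RRPE (ribosomal RNA processing element).

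Promoters of 4 genes on which the results turn are shown first, because most of the 43 genes share these elements. Each window runs from 250 bases before to 50 bases after the gene start in R64, which is the start of the coding sequence, and was read 5′ to 3′ on the strand of the gene from the RefSeq genome sequence. Capitals mark the core of PAC (GATGAG, or CTCATC on the other strand) and the core of RRPE (AAAAATTT, or AAATTTTT on the other strand), and adjoining or overlapping matches run together. NOP7 (chrVII:695167-695466, plus strand) and UTP20 (chrII:227386-227685, plus strand) are shown because their transcripts fell after the ramp and rose after the shock, UTP25 (chrIX:193146-193445, minus strand) because its transcript fell after both, and UTP22 (chrVII:662108-662407, plus strand) because its window held neither element.
NOP7: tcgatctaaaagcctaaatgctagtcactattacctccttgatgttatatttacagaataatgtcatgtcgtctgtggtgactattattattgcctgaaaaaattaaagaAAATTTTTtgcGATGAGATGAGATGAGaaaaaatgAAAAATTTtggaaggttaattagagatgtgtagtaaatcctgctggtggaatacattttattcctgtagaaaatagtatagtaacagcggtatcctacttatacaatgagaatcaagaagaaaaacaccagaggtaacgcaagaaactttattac
UTP20: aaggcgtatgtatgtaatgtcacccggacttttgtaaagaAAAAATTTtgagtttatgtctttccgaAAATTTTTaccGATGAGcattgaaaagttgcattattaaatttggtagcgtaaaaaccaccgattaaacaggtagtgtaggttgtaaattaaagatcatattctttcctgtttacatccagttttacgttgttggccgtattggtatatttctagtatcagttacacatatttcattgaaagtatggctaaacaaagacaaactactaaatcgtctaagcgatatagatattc
UTP25: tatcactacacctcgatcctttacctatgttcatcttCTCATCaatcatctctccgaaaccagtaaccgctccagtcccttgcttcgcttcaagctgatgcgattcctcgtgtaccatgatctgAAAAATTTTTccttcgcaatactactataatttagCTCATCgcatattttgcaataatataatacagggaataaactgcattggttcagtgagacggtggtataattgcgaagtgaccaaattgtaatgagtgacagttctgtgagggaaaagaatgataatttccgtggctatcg
UTP22: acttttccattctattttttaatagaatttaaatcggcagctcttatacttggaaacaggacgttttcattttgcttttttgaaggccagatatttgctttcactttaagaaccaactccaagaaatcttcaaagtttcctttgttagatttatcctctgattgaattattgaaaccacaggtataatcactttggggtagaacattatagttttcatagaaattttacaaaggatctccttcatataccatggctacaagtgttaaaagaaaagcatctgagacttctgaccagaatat
In the NOP7 window a run of 3 overlapping copies of GATGAG stood between a pair of RRPE cores.

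Both strands of the same window were searched for all 43 genes and for all 6001 protein-coding genes of the nuclear genome. GATGAG was found in 38 of the 43 windows (88.4%), against 20.4% of the windows of all genes. AAAAATTT was found in 36 (83.7%), against 14.1%. Both occurred in 32 of the 43 (74.4%), compared with 5.63% of all genes, and neither occurred in 1, UTP22, compared with 71.1%. Copies of the same core can overlap each other, as they do in NOP7 and UTP25, whereas a PAC core and an RRPE core share no end letters and cannot overlap. The 60 matches to GATGAG began at a median position of −111 relative to the gene start (quartiles −129 and −93), and the 50 matches to AAAAATTT at −134 (quartiles −150.5 and −118.5). In 29 of the 31 genes with both elements before the start, the nearest pair had AAAAATTT farther from the gene, with a median of 18 bases between the first bases of the pair. The same order was seen in 167 of 277 other genes with both (60.3%). A match shows that the letters are present, not that a factor binds there.

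**Figure D1:**
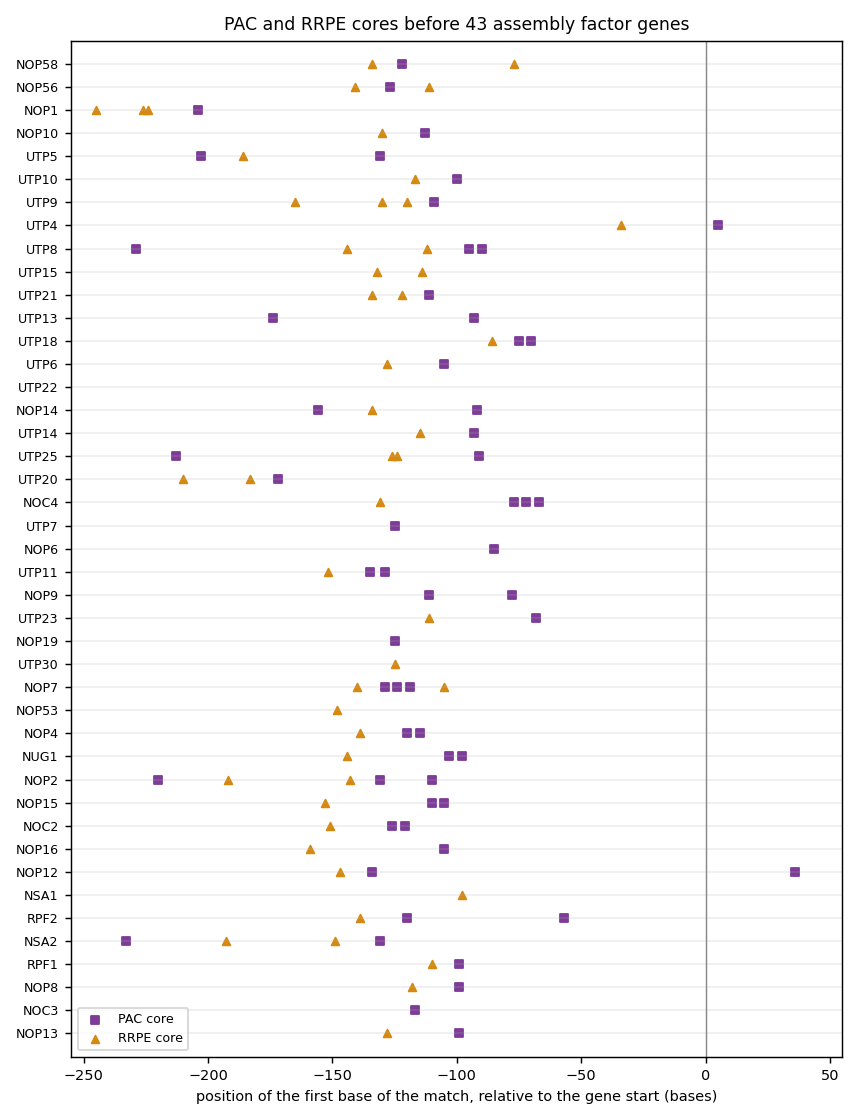
Position of PAC core (GATGAG, squares) and RRPE core (AAAAATTT, triangles) matches on either strand before each of the 43 assembly factor genes. The x axis gives the first base of the match relative to the gene start, in bases, and genes are grouped by role from top to bottom. Matches cluster around −111 (PAC core) and −134 (RRPE core), the RRPE core usually being the farther of the pair, and UTP22 has none.

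The 9 poly(A)+ libraries held from 22579312 to 27233289 counted reads. The paper gives RNA integrity only as an upper limit shared by all samples, so it cannot be compared between libraries. Values are normalized counts, in which the reads of a gene have been divided by the DESeq2 size factor of its library, and errors are SDs over 3 cultures. Size factors were 1.40 to 1.46 in control, 0.610 to 0.714 in heat ramp and 1.11 to 1.13 in heat shock libraries. In the same order, 6.31% ± 0.165 (n = 3), 20.4% ± 0.386 and 9.02% ± 1.69 of the reads fell on the top 10 features of a library. Size factors fix the zero of every comparison, so results were also computed with total count scaling, in which every library is brought to the same number of reads. LYS2, LEU2 and URA3, which are deleted in BY4742, had 0 reads in all 9 libraries (a count of 0 allows up to 3 reads, by counting error alone). The assembly factors had between 169 and 24798 reads per library. Samples of the same group differed beyond counting error, with a chi-square per degree of freedom across features of 23.0 to 219.

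After the heat ramp the assembly factors took a much smaller part of the reads, and after the heat shock they did not. Together the 43 genes took 1.37%, 1.31% and 1.42% of the reads in the control cultures 1, 2 and 3. They took 0.132%, 0.216% and 0.154% after the heat ramp, and 1.37%, 1.30% and 1.42% after the heat shock. The control and heat shock shares covered the same range, while the ramp share was 8.17 times smaller than that of the control (1.37% ± 0.0527 and 0.167% ± 0.0433, n = 3). In poly(A)+ RNA from a whole culture, fewer cells with the transcripts and fewer transcripts per cell cannot be told apart. Shares of reads are also relative, so a loss of these transcripts and a rise of others cannot be told apart.

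Every one of the 43 genes was lower after the heat ramp than in the control, in each culture, and all 43 passed the limma test at an adjusted p-value of 0.05. Over all tested features, 39.5% were called lower. The median log2 fold change of the 43 genes was −2.31, or 4.95-fold lower, with quartiles of −2.67 and −1.87, against −0.01 for all features. Values ran from −3.19 (UTP4) to −1.22 (NOP53), and the largest adjusted p-value was 3.09e-05. In all 43 genes every ramp library was below every control library, a separation in that direction that 40.8% of all features showed. Ramp replicate 2 was the highest of the 3 ramp libraries in 39 genes, and without it the median was −2.52 with 43 genes still lower. All 43 calls held under every scaling. With total count scaling, 4387 of the 6824 tested features were called lower. Among protein-coding genes alone, with the deposited size factors, 2684 of 5929 were. Total count scaling moved the median of all features to −0.93 and that of the genes to −3.22. A scaling shifts all features nearly alike, so the distance between these medians (−2.30 in either case) could hardly change.

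After the heat shock the same genes showed no common direction. The median log2 fold change against the control was 0.05, as for all features (0.04), and values ran from −0.47 (UTP25) to 0.85 (UTP20). With limma 13 genes were called higher, where 29.9% of all features were, and 3 were called lower, where 27.7% were. The other 27 genes did not pass the threshold. The 13 of 43 (30.2%) are thus near the share of all features called higher, while the 3 called lower are below the share called lower. Among the 5929 tested protein-coding genes alone, 1447 were called higher and 1879 lower. None of the 16 called genes reached a log2 fold change of 1 in size. Control and shock libraries were separate in 14 genes with the shock higher and in 12 with it lower, where 34.8% and 33.3% of all features were. Leaving out control replicate 1, control replicate 2 or heat shock replicate 3 reduced the genes called higher to 8, 7 and 7, respectively. The genes called lower became 1 without control replicate 1 or heat shock replicate 2, 2 without control replicate 3 or heat shock replicate 1, and 7 without ramp replicate 2. With the culture as a block 11 genes were called higher, NOC2 (adjusted p = 0.0513) and UTP21 (adjusted p = 0.0575) being the genes lost. Under total count scaling, which moved the median of all features to −0.13, 3 genes were higher and 6 lower. Of the 6824 features tested with that scaling, 1513 were called higher and 2402 lower.

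The direct comparison of the treatments, within the same limma fit, gave 43 genes lower after the heat ramp than after the heat shock, against 36.1% of all features. The median log2 fold change was −2.36, or 5.13-fold, and values ran from −3.57 (UTP8) to −1.01 (NOP16), with a largest adjusted p-value of 1.02e-04. Each gene was lower in all 3 cultures and its ramp and shock libraries did not overlap (35.4% of all features were separated in this direction). Leaving out any library kept the 43 calls, with medians between −2.61 and −2.23. The comparisons with the control share the control libraries, and both comparisons of the ramp share the ramp libraries, so they are not independent of each other.

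**Figure D2:**
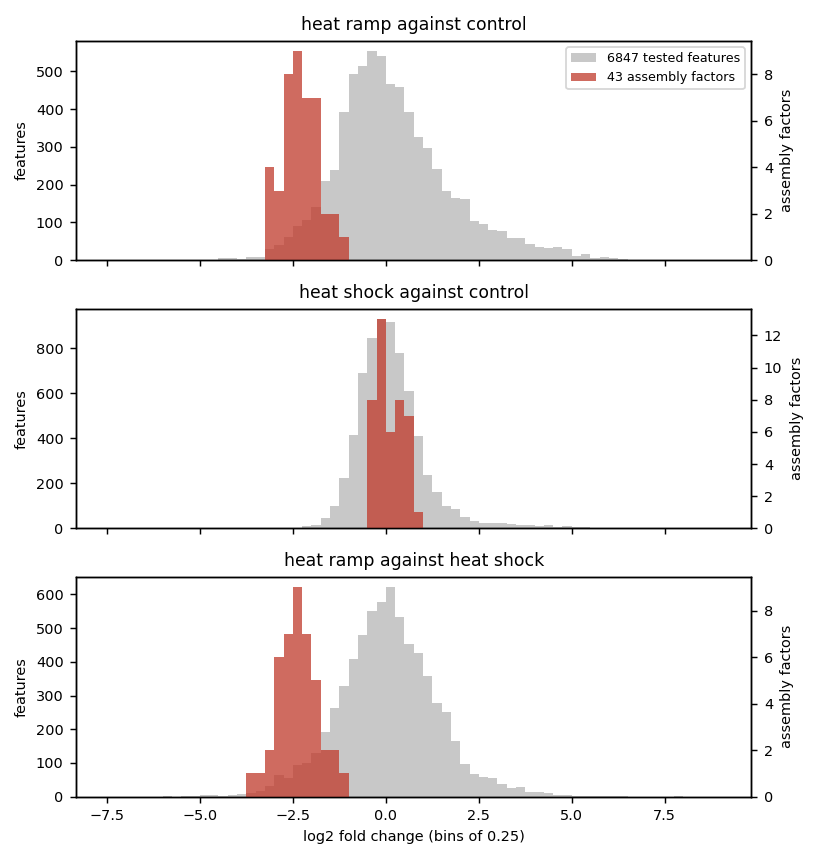
Distribution of log2 fold changes of the 43 assembly factors (red, right axis) and of all 6847 tested features (grey, left axis) in the 3 comparisons, in bins of 0.25. The assembly factors lie to the left in the comparisons of the heat ramp (medians −2.31 and −2.36) and over the centre of all features in heat shock against control (median 0.05).

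The order of the genes by level changed little. Per kilobase of gene length, normalized counts in the control ran from 712 (UTP20) to 14106 (NOP10), with a median of 3666. After the heat ramp they ran from 192 (NOP9) to 4910 (NOP10), with a median of 684. Following the heat shock they ran from 1275 (UTP20) to 19898 (NOP10), with a median of 3448. Across the 43 genes, Spearman's rho of the per kilobase levels was 0.928 between control and ramp and 0.937 between control and shock, a description over genes that share libraries and gene lengths.

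**Figure D3:**
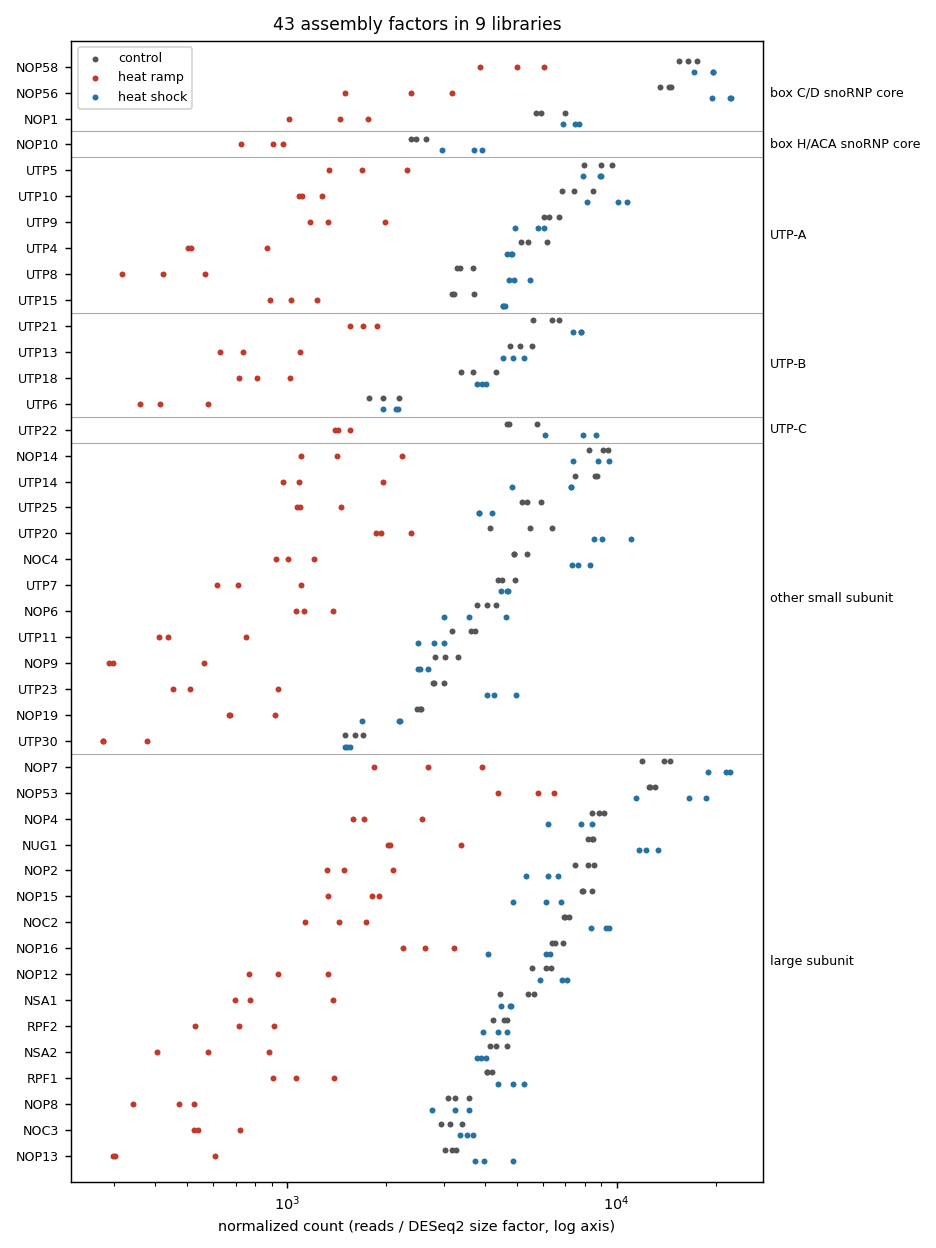
Normalized counts (log axis) of the 43 assembly factors in each of the 9 libraries, grouped by role and sorted by control level, with 1 point per library. Heat ramp libraries (red) lie left of all control (grey) and heat shock (blue) libraries in every gene, whereas control and heat shock points lie close together.

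Among the snoRNP core proteins, the box C/D genes NOP1, NOP56 and NOP58 had a median log2 fold change of −2.17 after the heat ramp. NOP1 encodes the 2′-O-methyltransferase known as fibrillarin in animals. Its normalized counts were 5884, 5700 and 6987 in control cultures 1 to 3, 1014, 1446 and 1760 after the ramp, and 6902, 7458 and 7691 after the shock. The ramp libraries lay far below the others, and the control and shock libraries overlapped. The log2 fold change was −2.17 for the ramp (standard error 0.171, limma adjusted p = 4.64e-08) and 0.25 for the shock (adjusted p = 0.220). NOP56 encodes a scaffold of the same particle, and its counts were 14666, 13550 and 14467 in the control, 1499, 3160 and 2377 after the ramp and 22077, 19469 and 22275 after the shock. Here all 3 groups were separate, the shock libraries being the highest. NOP56 changed by −2.66 on the log2 scale after the ramp and by 0.58 after the shock (standard error 0.205 for either, adjusted p = 3.72e-08 and 0.0266). The rise after the shock did not pass without control replicate 1, 2 or 3 or shock replicate 1 or 3 (adjusted p = 0.0532 to 0.0764). NOP58, the partner of NOP56, averaged 16493 ± 1030 in untreated cells, 4961 ± 1080 after the ramp and 18820 ± 1425 after the shock.

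NOP10 (YHR072W-A) encodes a small core protein of the box H/ACA snoRNPs, which guide pseudouridylation, and was the shortest of the genes at 177 bases. It had normalized counts of 2642, 2385 and 2463 in the control, 727, 973 and 908 after the ramp and 3691, 3911 and 2964 after the shock. The 3 groups did not overlap, with the ramp lowest and the shock highest. The log2 fold changes were −1.53 (standard error 0.141, limma adjusted p = 2.22e-07) and 0.49 (adjusted p = 0.00919).

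The UTP-A genes (UTP4, UTP5, UTP8, UTP9, UTP10 and UTP15) encode the subcomplex that binds the precursor first and, in yeast, is also linked to transcription of the ribosomal DNA. They had a median log2 fold change of −2.53 after the heat ramp. UTP4 (YDR324C, chromosome IV, 1114433 to 1116763, minus strand) had the largest fall of the 43 genes. For UTP4 normalized counts were 5391, 5144 and 6175 in the control, 513, 870 and 501 after the ramp and 4666, 4813 and 4780 after the shock. Ramp libraries lay far below both other groups. Shock libraries were much nearer to the control, but all of them were below it. The ramp lowered UTP4 9.13-fold (log2 fold change −3.19, standard error 0.178, limma adjusted p = 1.85e-09), while the shock gave −0.22 (adjusted p = 0.295).

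UTP8 (YGR128C, chromosome VII, 747950 to 750091, minus strand), also known for a part in nuclear tRNA export, had normalized counts of 3287, 3364 and 3670 in the control. It had 317, 565 and 421 after the ramp and 4731, 5448 and 4896 after the shock. The 3 groups were separate and the distance between the treatments was the largest of the 43 genes, 11.85-fold (log2 fold change −3.57, standard error 0.170, limma adjusted p = 4.36e-10). Against the control UTP8 fell by 3.02 on the log2 scale after the ramp and rose by 0.55 after the shock (adjusted p = 0.0138, or 0.0512 without shock replicate 2 and 0.0908 with total count scaling).

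UTP10, the largest protein of the subcomplex, had normalized counts of 7443, 6840 and 8500 in the control, 1091, 1113 and 1283 after the ramp and 8149, 10069 and 10796 after the shock. The ramp libraries were closely grouped, and the shock and control libraries overlapped, since shock replicate 1 was below control replicate 3. The log2 fold changes were −2.71 (limma adjusted p = 8.33e-10) and 0.34 (adjusted p = 0.0447). The latter did not pass without control replicate 1 or 2, ramp replicate 1, or shock replicate 2 or 3 (adjusted p = 0.0527 to 0.167). UTP15 was 3166, 3223 and 3705 in the control, 891, 1232 and 1029 after the ramp and 4514, 4538 and 4599 after the shock, with no overlap between groups. It rose by 0.44 after the shock (adjusted p = 0.0108). UTP5 and UTP9 fell after the ramp (−2.35 and −2.11) and did not pass the test after the shock (−0.04 and −0.19).

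The UTP-B genes UTP6, UTP13, UTP18 and UTP21 encode WD-repeat and related scaffold proteins that join after UTP-A, and had a median log2 fold change of −2.16 after the ramp. UTP21 had normalized counts of 6357, 5583 and 6714 in the control, 1702, 1878 and 1557 after the ramp and 7379, 7800 and 7813 after the shock. The groups did not overlap. Its log2 fold changes were −1.86 (limma adjusted p = 6.67e-09) and 0.31 (adjusted p = 0.0417, with a range of 0.0505 to 0.178 in 6 of the 9 fits that each left out a library, namely control replicate 1 or 2, ramp replicate 1 and any shock replicate). The other 3 genes fell after the ramp (−2.68 for UTP13, −2.16 for UTP18 and −2.15 for UTP6) and had values between −0.08 and 0.09 after the shock, none of which passed.

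UTP22 (YGR090W, chromosome VII, 662358 to 666071, plus strand) belongs to UTP-C, the subcomplex that also holds casein kinase 2 and, through UTP22, links to transcription of ribosomal protein genes. Its normalized counts were 4668, 4734 and 5741 in the control, 1559, 1403 and 1429 after the ramp and 6060, 8655 and 7905 after the shock. The 3 groups were separate, and the ramp libraries differed little among themselves. UTP22, whose promoter window above shows neither element, fell by 1.78 on the log2 scale after the ramp (standard error 0.144, limma adjusted p = 5.87e-08). It rose by 0.57 after the shock (adjusted p = 0.00412), a call that held in all 20 alternative fits (other scalings, filters, tests or a library left out).

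Of the 12 other small subunit factors, all were called lower after the heat ramp (median −2.32), where 39.5% of all features were. After the heat shock 3 rose and 1 fell (median −0.10), where 29.9% and 27.7% of all features did. UTP20 (YBL004W, chromosome II, 227636 to 235117, plus strand) encodes a very large scaffold protein and was the longest of the genes at 7482 bases. The normalized counts of UTP20 were 6362, 4138 and 5484 in the control, 1938, 2378 and 1871 after the ramp and 8556, 9009 and 11049 after the shock. All shock libraries lay above all control libraries. The rise after the shock, 1.81-fold, was the largest of the 43 genes (log2 fold change 0.85, standard error 0.165, limma adjusted p = 6.80e-04), and the fall after the ramp, −1.35, was among the smallest.

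NOC4 and NOP14 encode partners in a complex of the early small subunit precursor. NOC4 had normalized counts of 4883, 4879 and 5361 in the control, 928, 1008 and 1212 after the ramp and 7325, 8298 and 7647 after the shock, and the 3 groups were well separated. Its log2 fold changes were −2.27 (limma adjusted p = 1.62e-09) and 0.62 (adjusted p = 8.66e-04), and both calls held in all 20 alternative fits. NOP14 had 9403, 8232 and 9122 in the control, 1106, 2242 and 1424 after the ramp and 8799, 7365 and 9465 after the shock. It fell after the ramp as NOC4 did (−2.55), but its control and shock libraries overlapped and the shock value of −0.07 did not pass (adjusted p = 0.786). The difference between the partners was not tested.

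UTP23, which acts in the release of the snR30 snoRNA, had normalized counts of 2796, 2779 and 2993 in the control, 451, 942 and 510 after the ramp and 4058, 4248 and 4965 after the shock. Replicate 2 stood above the other ramp libraries, and no groups overlapped. The log2 fold changes were −2.25 and 0.63 (limma adjusted p = 2.66e-07 and 0.0202, the latter 0.0549 without control replicate 1, 0.0553 without control replicate 2 and 0.0807 without shock replicate 3). NOP9, a Pumilio-repeat protein that binds the precursor, had 3011, 2816 and 3317 in the control, 290, 562 and 298 after the ramp and 2544, 2683 and 2497 after the shock. It was among the 3 largest falls after the ramp (8.31-fold, log2 fold change −3.05), and its shock libraries, although all below the control, did not pass (−0.24), except without ramp replicate 2 (adjusted p = 0.0414) or with only the groups compared.

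UTP25 (YIL091C, chromosome IX, 191030 to 193195, minus strand) resembles DEAD-box RNA helicases and is recruited with the help of NOP19. Its normalized counts were 5336, 5169 and 5906 in the control, 1095, 1457 and 1073 after the ramp and 3838, 3831 and 4184 after the shock. The shock libraries lay between the other groups without overlap. UTP25 fell by 2.19 on the log2 scale after the ramp (limma adjusted p = 3.84e-09) and by 0.47 after the shock (standard error 0.133, adjusted p = 0.00829), and was the only one of the 43 called lower after the shock in all 20 alternative fits. NOP19 had 2533, 2490 and 2558 in the control, 676, 922 and 670 after the ramp and 2204, 1687 and 2186 after the shock. Its shock libraries were also below all control libraries, but the value of −0.33 did not pass (adjusted p = 0.0698, or 0.0208 without ramp replicate 2). After the ramp NOP19 fell by 1.76 on the log2 scale (adjusted p = 8.94e-08). The remaining members of this group (UTP7, UTP11, UTP14, UTP30 and NOP6) fell after the ramp by values of −2.77 (UTP11) to −1.77 (NOP6) and did not pass after the shock. Without ramp replicate 2, UTP11 (−0.34, adjusted p = 0.0126) and UTP14 (−0.38, adjusted p = 0.0432) did pass as lower after the shock.

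**Figure D4:**
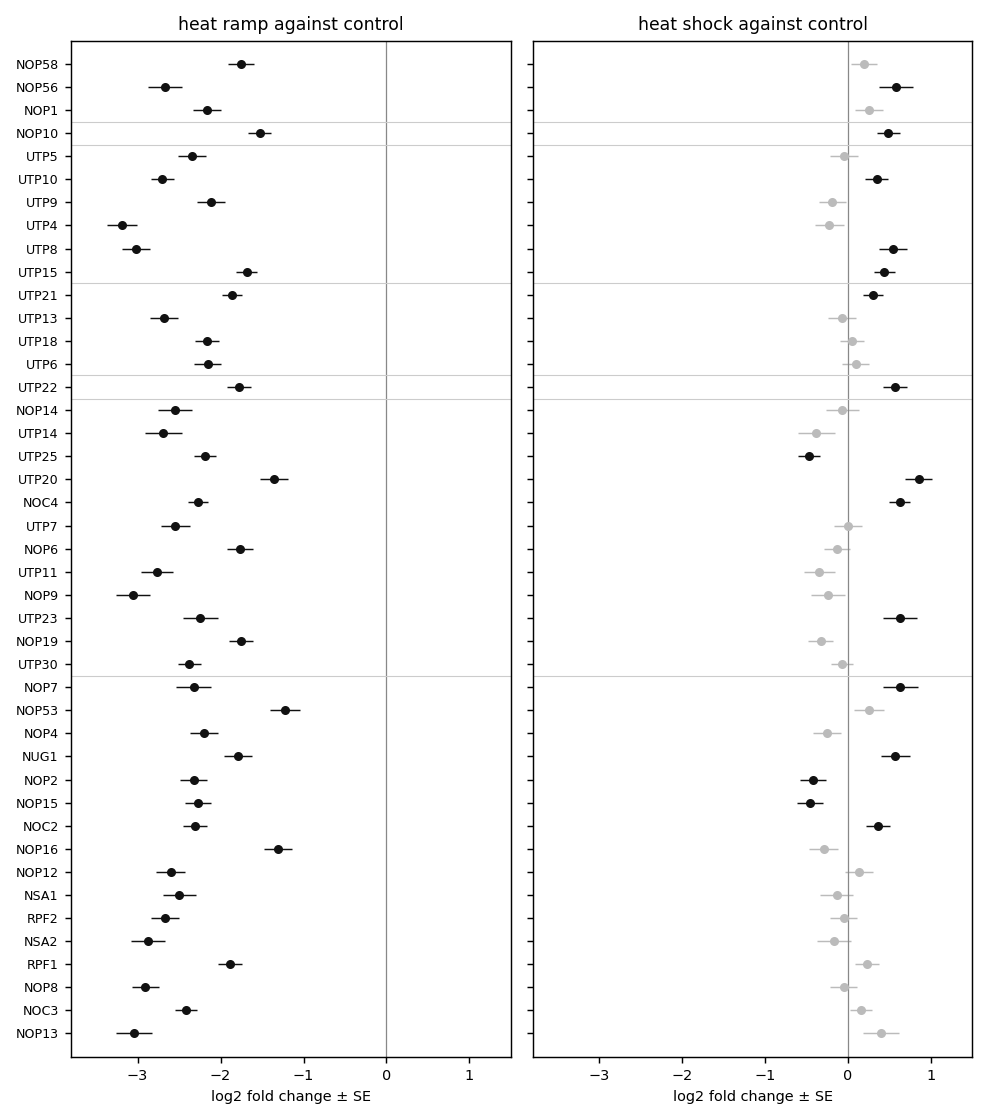
Log2 fold change ± standard error (limma) of each assembly factor against the control, after the heat ramp (left) and the heat shock (right), in the role order of the plot of values by library. Black points have an adjusted p-value under 0.05 and grey points do not, so that all 43 are black and below 0 on the left, and 13 above and 3 below 0 are black on the right.

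The 16 large subunit factors were all called lower after the heat ramp (median −2.32), where 39.5% of all features were. After the heat shock 3 rose, 2 fell and 11 did not pass (median 0.04). Over all features 29.9% rose and 27.7% fell. NOP7 (YGR103W, chromosome VII, 695417 to 697234, plus strand) is the homologue of pescadillo and works with ERB1 and YTM1 in early large subunit assembly. NOP7 had normalized counts of 14561, 11948 and 13958 in the control, 1838, 3917 and 2677 after the ramp and 21446, 18884 and 22134 after the shock. The groups did not overlap. The log2 fold changes were −2.33 (standard error 0.211, limma adjusted p = 1.99e-07) and 0.63 (adjusted p = 0.0205), the latter lost without control replicate 2 (adjusted p = 0.0777) or shock replicate 3 (adjusted p = 0.0663).

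NUG1, a nuclear GTPase, and NOC2, which pairs with other NOC proteins on the precursor, also fell after the ramp and rose after the shock. NUG1 had normalized counts of 8495, 8169 and 8448 in the control, 2061, 3376 and 2025 after the ramp and 12294, 11717 and 13350 after the shock. NOC2 had 6911, 6963 and 7158 in the control, 1134, 1736 and 1442 after the ramp and 9507, 8363 and 9262 after the shock. In both genes the control libraries were nearly equal and the groups separate. NUG1 changed by −1.79 and 0.57 on the log2 scale (limma adjusted p = 3.18e-07 and 0.0111). NOC2 changed by −2.31 and 0.37 (adjusted p = 4.90e-09 and 0.0426), and its rise did not pass without any control replicate in turn, without ramp replicate 3 or without shock replicate 1 or 3 (adjusted p = 0.0519 to 0.109).

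NOP2, the methyltransferase that makes 5-methylcytosine in the large ribosomal RNA, and NOP15, which binds the spacer between the large subunit RNAs, were lower after both treatments. NOP2 had normalized counts of 8198, 7459 and 8564 in the control, 1326, 2098 and 1496 after the ramp and 6178, 5299 and 6629 after the shock. NOP15 had 8402, 7837 and 7891 in the control, 1336, 1905 and 1814 after the ramp and 6109, 4865 and 6784 after the shock. In both genes each shock library lay between the ramp and the control libraries, and shock replicate 2 was the lowest. NOP2 changed by −2.32 after the ramp and −0.42 after the shock (limma adjusted p = 1.23e-08 and 0.0354). NOP15 changed by −2.27 and −0.46 (adjusted p = 1.15e-08 and 0.0220). The lower value of NOP2 after the shock did not pass without control replicate 1 or 3 or shock replicate 1 or 2 (adjusted p = 0.0576 to 0.128), nor that of NOP15 without control replicate 1 (adjusted p = 0.0692) or shock replicate 2 (adjusted p = 0.105).

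The smallest falls after the ramp were found in NOP53 and NOP16, along with UTP20. NOP53 (YPL146C, chromosome XVI, 276162 to 277529, minus strand), which recruits the exosome for trimming of the large subunit RNA, had normalized counts of 13103, 12573 and 12635 in the control, 4380, 6465 and 5798 after the ramp and 16532, 11430 and 18666 after the shock. The ramp libraries were separate, but the shock libraries fell on either side of the control. Its ramp value was −1.22 (standard error 0.184, limma adjusted p = 3.09e-05), and its shock value of 0.25 did not pass (adjusted p = 0.253, or 0.0327 without shock replicate 2). NOP16 had 6526, 6390 and 6878 in the control, 2250, 3212 and 2628 after the ramp and 6116, 4063 and 6270 after the shock. Its ramp libraries were again the lowest, though shock replicate 2 came near them. It fell by 1.31 on the log2 scale after the ramp (adjusted p = 7.93e-06), and the shock gave −0.29 (adjusted p = 0.156).

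NOP13, RPF2 and NSA1 represent larger falls. NOP13, an RNA-binding protein, had normalized counts of 3258, 3012 and 3177 in the control, 303, 608 and 298 after the ramp and 3958, 3711 and 4868 after the shock. It fell 8.26-fold after the ramp (log2 fold change −3.05, limma adjusted p = 1.90e-08). All its shock libraries were above the control, but 0.40 did not pass (adjusted p = 0.132, or 0.00693 without ramp replicate 2). RPF2, which brings the 5S ribonucleoprotein to the precursor, went from 4475 ± 230 to 719 ± 193 after the ramp and 4322 ± 372 after the shock. NSA1 went from 5157 ± 625 to 952 ± 375 and 4666 ± 175. In both genes the control and shock libraries overlapped. The others (NOP4, NOP8, NOP12, NOC3, RPF1 and NSA2) fell by values of −2.91 (NOP8) to −1.88 (RPF1) after the ramp and did not pass after the shock.

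**Figure D5:**
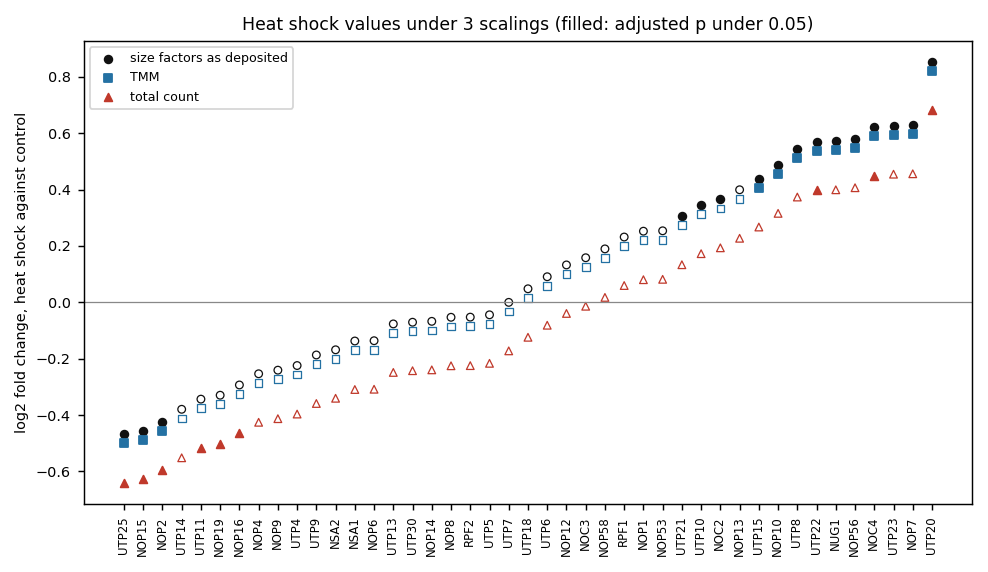
Log2 fold change of heat shock against control for each of the 43 assembly factors under 3 scalings of the libraries, with filled symbols for an adjusted p-value under 0.05 (limma). Size factors as deposited give 13 higher and 3 lower, TMM 10 and 3, and total count 3 and 6. The points run in parallel because a scaling shifts all genes nearly alike.

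How many heat shock calls remained depended on the scaling. UTP20, NOC4 and UTP22 were called higher and UTP25 lower in all 20 alternative fits. Those of UTP15, NOP10 and NUG1 were lost in 1 of these fits, total count scaling (limma adjusted p = 0.120, 0.0914 and 0.0727), with values of 0.27, 0.32 and 0.40 on the log2 scale. The same scaling lost UTP8, UTP10, UTP21, UTP23, NOP7, NOP56 and NOC2 (adjusted p = 0.0816 to 0.396). It also brought UTP11, NOP19 and NOP16 below the threshold as lower (−0.52, −0.50 and −0.47). TMM scaling left 10 genes higher, without UTP10, UTP21 and NOC2. A fit of only the groups compared added NOP13 as higher (adjusted p = 0.0113) and UTP11, NOP19 and NOP9 as lower (adjusted p = 0.0169, 0.0281 and 0.0463). With the deposited size factors 13 genes were thus lower than the control after the ramp and higher after the shock, and with total count scaling 3 were. The share of all features with such opposite calls was not computed.

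Other genes of the same pathway, taken from lists of assembly factors with other names, were nearly all lower after the ramp as well. Of 37 other small subunit factors, 36 were lower and none higher (median −2.28), where 39.5% of all features were lower. The lowest were the helicase gene ROK1 (−3.98) and DIP2 (−3.43), whose product is UTP12 of the UTP-B subcomplex. RCL1, needed for early cleavage of the precursor, was lower by little (−0.33, limma adjusted p = 0.0201), and the helicase gene HCA4 had 0.36 (adjusted p = 0.0958). After the shock 5 of the 37 were higher and 8 lower (median −0.05), where 29.9% and 27.7% of all features were. Values ran from BUD21 (−0.78) and FCF2 (−0.68) to RCL1 (0.63) and SNU13 (0.83), a snoRNP and spliceosome protein. Directly compared, 35 of the 37 were lower after the ramp than after the shock, against 36.1% of all features.

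All 46 other large subunit factors were lower after the heat ramp (median −2.62), where 39.5% of all features were. They ranged from MAK16 (−3.92) and the helicase gene HAS1 (−3.70) to TIF6 (−1.01), which keeps the subunits apart, and REA1 (−0.35), the giant AAA-type ATPase. After the heat shock 11 of the 46 were higher and 3 lower (median 0.08), against the same 29.9% and 27.7% of all features. TIF6 rose the most (1.15, limma adjusted p = 1.40e-05), followed by NIP7 (0.93), and RSA3 (−0.49) and RRP14 (−0.47) were the lowest. The box H/ACA partners of NOP10 were lower after the ramp in 3 of 3 genes, NHP2 (−2.67), GAR1 (−2.43) and CBF5 (−1.97), against 39.5% of all features. After the shock GAR1 (0.99) and NHP2 (0.54) rose, as NOP10 did, and CBF5 had −0.10 (adjusted p = 0.685).

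The transcripts of 9 regulators linked to ribosome production, some of them regulators of ribosomal protein genes rather than of assembly factors, were also examined. After the ramp 4 of the 9 were lower, where 39.5% of all features were. Of these, IFH1 (−1.87) and FHL1 (−0.78) act together at ribosomal protein genes. The others were TOD6 (−1.53), a repressor that binds PAC, and SCH9 (−0.997), a kinase downstream of TORC1. The kinase gene TOR1 (0.80, limma adjusted p = 5.15e-05) and the activator gene SFP1 (0.39, adjusted p = 0.0352) were higher, as were 2670 of the 6847 tested features. DOT6, the other PAC repressor, had −0.24 (adjusted p = 0.302), and STB3, which binds RRPE, had −0.21 (adjusted p = 0.195). After the shock FHL1 (−0.69), STB3 (−0.41) and CRF1 (−0.39) were lower and SCH9 (0.42) was higher. Over all features 27.7% were called lower and 29.9% higher after the shock. These are transcript levels, and the activity of the proteins was not measured.

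Beyond the 43 genes, the fall after the ramp was also described by promoter element. Of 305 other tested protein-coding genes with both cores in the window, 84.6% were called lower after the heat ramp, with a median log2 fold change of −1.68. With GATGAG alone (848 genes) 46.5% were lower (median −0.23), with AAAAATTT alone (504 genes) 53.4% (median −0.41), and with neither (4211 genes) 40.6% (median −0.09). The first class includes other assembly factors, which were not set apart. After the heat shock 24.3% of the class with both were higher and 20.7% lower (median 0.07). With GATGAG alone 22.8% were higher and 31.0% lower, with AAAAATTT alone 28.2% and 25.2%, and with neither 23.8% and 33.7%. Among the 43 genes the ramp medians were −2.29 with both cores (32 genes), −2.48 with GATGAG alone (6), −2.03 with AAAAATTT alone (4) and −1.78 for UTP22 with neither, so that the members without a pair of cores fell as well. The 32 genes include UTP4, whose only GATGAG match began after the gene start (position 5).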

How the data were processed

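RNA was sequenced from BY4742 as single-end 50 bp poly(A)+ libraries. The authors trimmed reads with Trimmomatic 0.32, aligned them to SacCer3 (R64) with Bowtie2 in sensitive local mode and normalized with DESeq2. The counting tool, its annotation and the use of strand are not given in the sources used here. The deposited values are a signal, normalized counts that the authors made by dividing reads per feature by size factors, and 100% of the values gave whole reads (tolerance 0.01). Deposited columns with the authors' own fold changes and p-values were not used.

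Features whose normalized counts averaged 10 or more (6847 of 7126) were fitted as log2(normalized count + 1) with limma 3.58.1 (trended prior, R 4.3.3) over all 9 libraries with group as the only factor. Tests were two-sided, with Benjamini-Hochberg adjustment over all tested features and a threshold of 0.05. An exact permutation test of 3 against 3 cannot go below 0.1. The procedure was tested on simulated data. Alternatives were pseudocounts of 0.1 and 5, no filter, protein-coding genes only, TMM and total count scaling, only the groups compared, edgeR 4.0.16 (quasi-likelihood) and DESeq2 1.42.0 on the recovered reads, a log2 fold change of at least 1, a replicate block and each library left out. Size factors from protein-coding genes alone were added after seeing the data.

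The study's supplementary file states that cultures 1, 2 and 3 each gave a sample of every group, so the replicate numbers pair the samples. Deviations from group means correlated within cultures by 0.03, −0.20 and −0.01 (control and ramp), 0.29, 0.04 and 0.05 (control and shock) and −0.05, −0.05 and 0.01 (ramp and shock). All 43 genes were found in R64, which matched 6048 of the 7126 identifiers. Each has a single coding segment and none overlaps another annotated gene. Roles were assigned from general knowledge. Values in every library are given for the 3 largest changes in each direction and comparison that were the same way in all 3 cultures. Where no gene rose, the 3 smallest falls were taken instead. They are also given for genes that moved in opposite directions and for a set of representatives of each role. Of the representatives, NOP58, RPF2 and NSA1 are given as mean ± SD only. The members, lists and motifs were chosen with earlier results of these data known.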

Additional observations from a re-analysis of the deposited data

Results flagged for a closer look

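The direct comparison of heat ramp and heat shock gave a difference in all 43 assembly factors, each lower after the ramp in limma at an adjusted p-value under 0.05. Against the control 13 of them were lower after the ramp and higher after the shock, and 3 were with total count scaling. Since all 43 were lower after the ramp, the 13 are those called higher after the shock (30.2%, beside 29.9% of all features). The share of all features called in opposite directions was not computed. For the 13 the log2 fold changes of ramp against shock were −3.57 (UTP8), −3.24 (NOP56), −3.05 (UTP10), −2.95 (NOP7), −2.89 (NOC4), −2.87 (UTP23), −2.67 (NOC2), −2.36 (NUG1), −2.35 (UTP22), −2.21 (UTP20), −2.17 (UTP21), −2.13 (UTP15) and −2.02 (NOP10).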

How the results depend on the processing

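In the comparisons of the ramp with control and with shock, all 43 genes stayed lower under every alternative, with medians of −2.52 to −2.15 and −2.61 to −2.23 when single libraries were left out. Total count scaling gave medians of −3.22 and −3.10, and the share of all called features that were higher moved from 49.7% to 23.0% and from 49.9% to 22.3%. Of the 6824 features tested with that scaling, 4387 and 4097 were called lower. For the shock against the control, where 13 genes were higher and 3 lower, total count scaling gave 3 higher and 6 lower (median −0.12). Among all 6824 features tested there, 1513 were higher and 2402 lower. The share of called features that were higher moved from 52.0% to 38.6%. There the replicate block gave 11 higher and 3 lower and changed no call in the other comparisons, a fit of only the groups compared gave 6 lower, and size factors from protein-coding genes, chosen after seeing the data, gave 1 lower and a median of 0.16. Leaving out single libraries gave 7 to 14 higher, 1 to 7 lower and medians of −0.015 to 0.15. With a log2 fold change of at least 1, the called features were 3104 (ramp), 1226 (shock) and 2777 (ramp against shock), and 0 genes were higher and 0 lower after the shock. No gene reversed a call. Over 903 results of single genes in shock against control, 820 kept their call or lack of a call, 70 lost a call and 13 gained one. These results include the cut-off of a log2 fold change of at least 1, which is not among the 20 alternative fits named above. With that cut-off every assembly factor called after the shock lost its call.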
